A study of Rattus norvegicus with 8 samples.

Results

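The proteasome genes of the ovary were followed as 46 gene names on a 1-colour Agilent rat expression array. They were taken as every non-control probe whose gene name begins with Psma to Psmg and a digit, with the immunoproteasome genes Psmb8, Psmb9 and Psmb10 set apart. This gave 53 of the 30350 probes and 46 of the 26204 gene names. The names stand for 45 genes, because RefSeq lists Psma3l as a synonym of Psma3. Each gene was represented by its brightest probe over all arrays, and on all 8 arrays each of these 46 was well above background.

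Whole ovaries of female rats were compared between 4 arrays labelled PMSG and 4 arrays labelled control, to ask how pregnant mare serum gonadotropin alters ovarian transcripts. PMSG is an equine hormone preparation that acts mainly like follicle-stimulating hormone and makes ovarian follicles grow. Per the labels, the hormone was injected under the skin at 26 days of age, at a dose of 50 IU dissolved in albumin phosphate buffer (0.2 ml), the control animals got that buffer alone (their titles say untreated), and ovaries were taken 48 h later, at 28 days. No strain or genotype is named, the animals were immature and hormone was the only agent, and nothing in the labels says whether an array holds 1 animal or a pool. Each level below is the log2 signal of a probe minus the 75th percentile of its array, and each difference is the mean of the PMSG-labelled arrays minus that of the control-labelled arrays on this log2 scale. The 75th percentile of the signal ran from 769 to 1103 over the 8 arrays, and 80.8% to 84.6% of probes were well above background. The listed markers of granulosa cells, theca cells and oocytes were all detected. Some genes with a well-known response to PMSG went the opposite way: Lhcgr and Star were lower, with differences of -1.93 and -2.75, and Amh was higher by 3.03 in arrays labelled PMSG. Directions therefore follow the sample titles and nothing else.

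The proteasome is the protease that destroys proteins tagged with chains of ubiquitin. Its 20S core is a barrel of alpha rings, which gate the entry, and beta rings, which hold the cutting sites. A 19S cap sits on the barrel. The base of the cap carries a ring of ATPases that unfold the substrate, and its lid carries the enzyme that cuts the ubiquitin chain off. Dedicated chaperones assemble both parts, and other activators can replace the cap. In the ovary, proteasomal destruction of cyclins and securin drives the meiotic divisions of the oocyte.

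Most proteasome genes were lower in arrays labelled PMSG. Of the 46 genes, 31 were lower and 3 were higher at an adjusted p under 0.05 (limma over 25303 probes), and 12 were not called. That is 73.9% called, against 34.5% of the 21922 genes tested across the array, and 67.4% called lower, against 16.5%. Called higher were 18% of all genes. The values of the PMSG-labelled and control-labelled arrays did not overlap for 36 of the 46 genes, 32 of them lower, where 37% of all genes had no overlap and 18.5% had none in the lower direction. The median difference was -0.48 over the proteasome genes and 0.12 over all genes. For 11 genes the decrease was at least 1.5-fold and called, a size that 10% of all genes reached. With all tested probes of a gene averaged, 31 genes were lower and 1 was higher (Psmg4). With arrays centred on their medians, 34 were lower and 3 higher, where 21.9% of all probes were called lower out of 33.4% called, against 16.6% lower and 17.6% higher out of 34.2% in the values reported here. In bulk tissue, fewer cells of a type and less RNA per cell cannot be told apart.

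**Figure D1:**
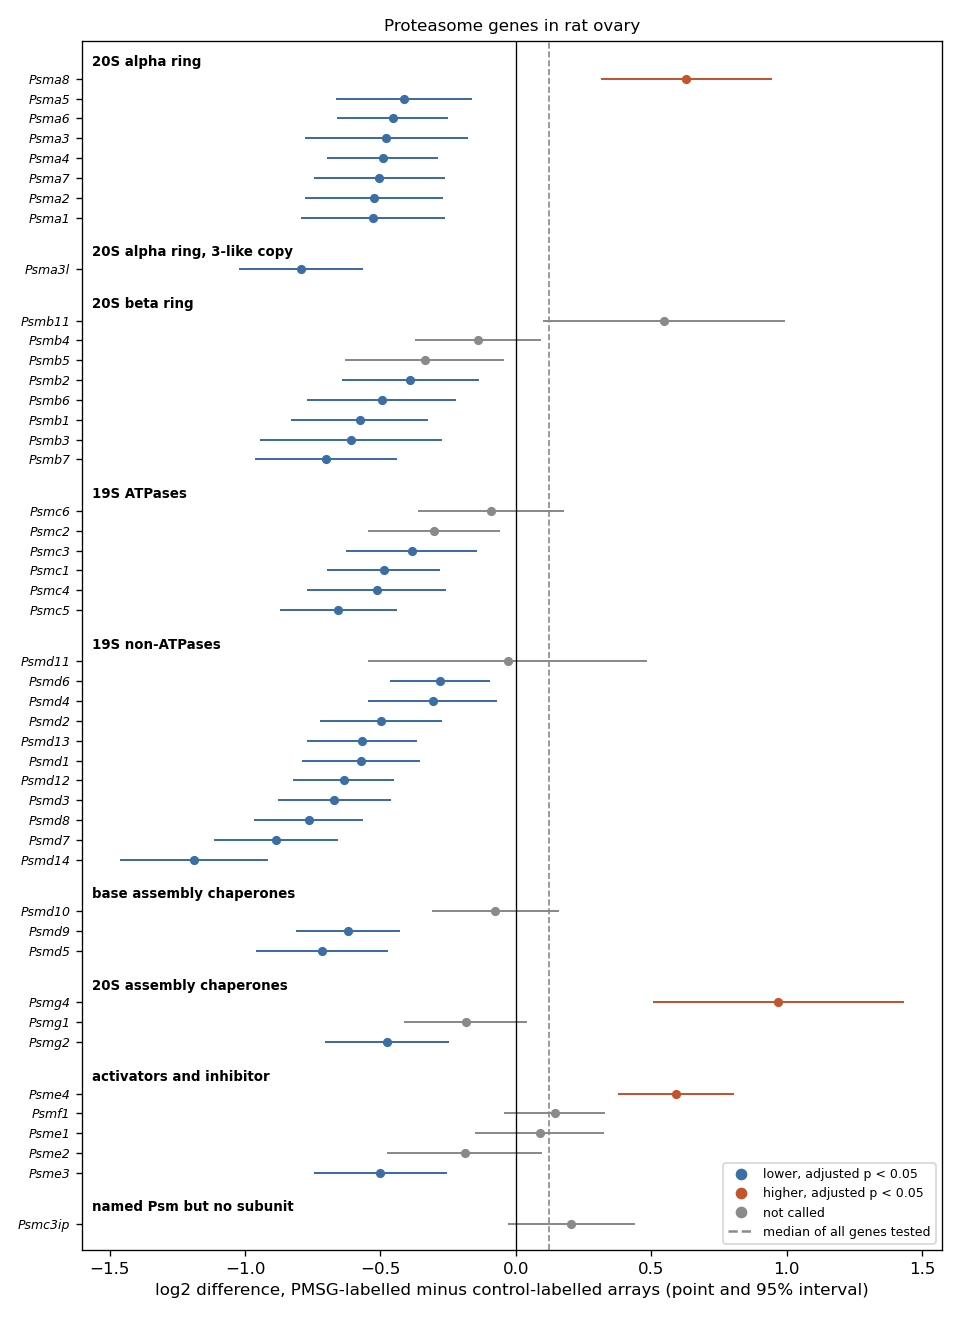
Log2 difference (PMSG-labelled minus control-labelled arrays, horizontal axis) of each of the 46 proteasome genes by role, as a point with its 95% interval from limma on 4 arrays a label, with the median of all genes tested (0.12) as a dashed line. Blue points (31 genes) lie left of 0, and the 3 orange points (Psma8, Psmg4 and Psme4) lie right of it.

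The structural subunits made up most of the genes called lower. The name rule took 31 constitutive subunits of the 20S core and the 19S cap, without Sem1 and Adrm1 of the cap. All 31 had a difference below 0. Of them 26 were called lower and 0 higher by limma, with 28 at an unadjusted p under 0.05, all below 0. Their median was -0.50, a value that 14.96% of all genes were at or below. The 20S core had 12 of 14 subunits lower (median -0.49) and the 19S cap 14 of 17 (median -0.51). The 15 other names were tissue-specific subunits, the 3-like name, chaperones, activators, the inhibitor and 1 unrelated gene. They were mixed: 5 were lower, 3 higher and 7 not called, with a median of -0.08. That is 53.3% called and 33.3% lower, against 34.5% and 16.5% of all genes, of which 18% were higher. The 3-like name, Psma3l, is 1 of the 5 lower and stands for Psma3, which is also among the 31.

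**Figure D2:**
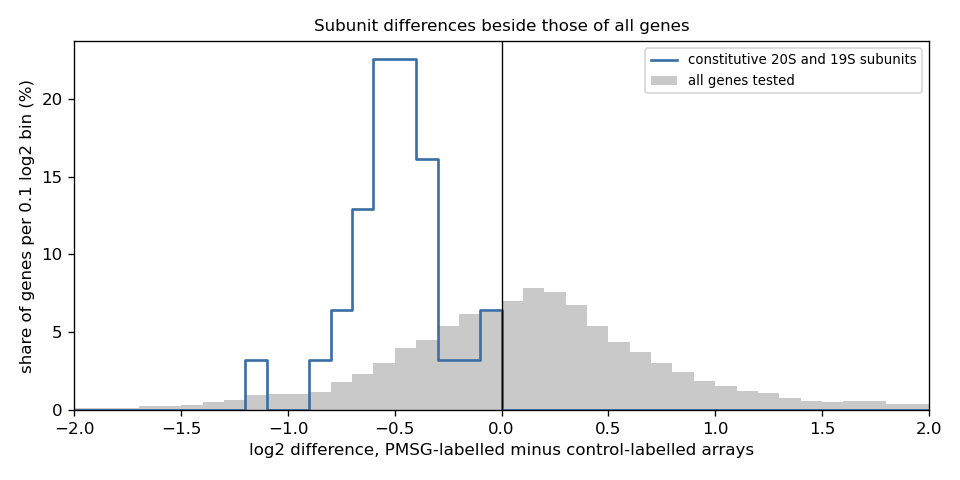
Share of genes (vertical axis, %) in each bin of 0.1 of the log2 difference (horizontal axis, PMSG-labelled minus control-labelled arrays), for the 31 constitutive subunits (blue line) and the 21922 genes tested (grey), of which 21478 lie in the range drawn. The blue line lies wholly left of 0, between -1.19 and -0.03, while the grey bars centre right of 0.

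Every PMSG-labelled array showed the decrease. With each subunit set against its own mean over control-labelled arrays, the median of the 31 subunits was -0.45, -0.53, -0.38 and -0.63 on PMSG-labelled arrays 1 to 4. The same median was 0.03, -0.02, -0.05 and 0.04 on the control-labelled arrays. Below the control mean lay 29, 29, 30 and 31 of the 31 subunits on the PMSG-labelled arrays in turn. Over all genes the medians of the PMSG-labelled arrays were 0.20, 0.08, 0.22 and -0.11, so array 4, with the lowest subunit median, also had the lowest median of all genes, and array 3, with the highest, also had the highest. The subunits were tightly held among control-labelled arrays, with a median SD of 0.07, against 0.15 among PMSG-labelled arrays. Over all genes these medians were 0.16 and 0.27.

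**Figure D3:**
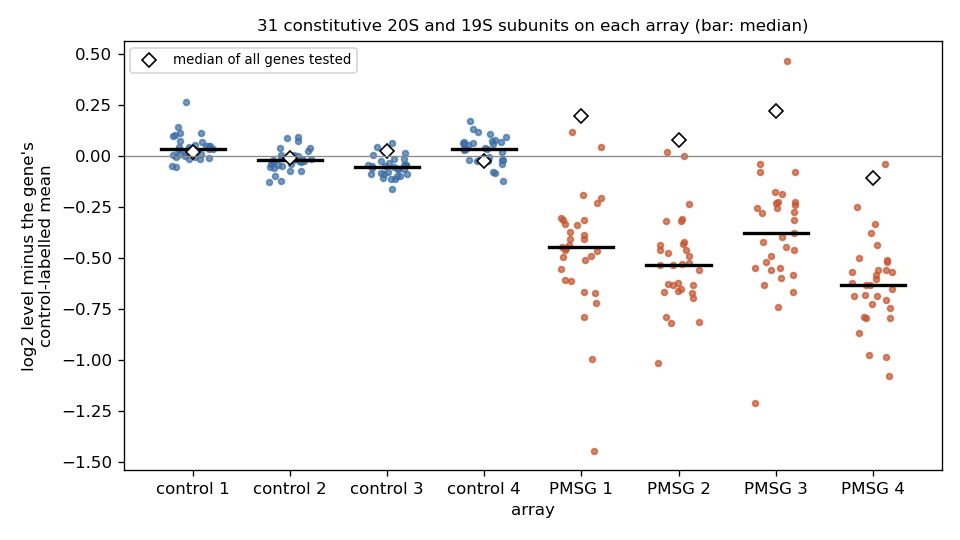
Log2 level of each of the 31 constitutive subunits minus its mean over control-labelled arrays (vertical axis) on each of the 8 arrays (points), with the median of the subunits (bar) and of all genes tested (diamond). The bars of the 4 PMSG-labelled arrays lie between -0.63 and -0.38, and those of the control-labelled arrays between -0.05 and 0.04.

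The 4 arrays in each row of the slide, 2 of each label, gave like values. The median of the 31 subunits was -0.49 within the first row and -0.54 within the second, with 30 of 31 below 0 in each. The row is a position read from the deposited names and is no stated processing batch.

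Of the 8 genes named Psm in the lid of the 19S cap, 7 were lower, with a median of -0.65. Sem1, a lid gene that the name rule left out, differed by -0.17 (limma, adjusted p = 0.244), with overlap between labels. The largest decrease of the 46 genes was that of Psmd14, the deubiquitinase that cuts the ubiquitin chain from a substrate, and the next was that of Psmd7, which pairs with it in the lid. Their probes are shown for that reason. The Psmd14 probe maps to chr3:43696292-43699023 of rn4 on the minus strand, a stretch longer than the 60 bases of the probe, so it joins exons. The Psmd7 probe maps to chr19:37452992-37453051 on the minus strand.
Psmd14 probe: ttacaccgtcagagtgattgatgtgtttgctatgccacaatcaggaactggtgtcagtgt
Psmd7 probe: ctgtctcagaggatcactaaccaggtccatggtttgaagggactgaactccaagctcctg

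Over control-labelled arrays 1 to 4 the level of Psmd14 was 1.11, 1.02, 1.04 and 1.21, and over PMSG-labelled arrays 1 to 4 it was -0.35, 0.08, -0.12 and 0.01. The groups lay far apart, and array 1 was the lowest of the PMSG-labelled arrays. The difference was -1.19 ± 0.12 (SE), or 2.28-fold lower (adjusted p = 0.000279, limma). Within the slide rows it was -1.14 and -1.24. Psmd7 stood at 2.51, 2.56, 2.45 and 2.61 on control-labelled arrays and at 1.53, 1.71, 1.79 and 1.55 on PMSG-labelled arrays. Here too no value of one label reached the other, and the difference was -0.88 ± 0.10 (SE), 1.85-fold lower (adjusted p = 0.000436).

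Psmd8, Psmd3 and Psmd12, structural subunits of the lid, were also lower by at least 1.5-fold. For Psmd8 the control-labelled arrays gave 2.17, 2.18, 2.13 and 2.28 and the PMSG-labelled arrays 1.40, 1.38, 1.53 and 1.40, a decrease of 1.70-fold (adjusted p = 0.000467). For Psmd3 the values were 2.30, 2.27, 2.18 and 2.40 against 1.61, 1.62, 1.69 and 1.54, 1.59-fold lower (adjusted p = 0.000903). Psmd12 gave 2.79, 2.72, 2.71 and 2.79 against 2.09, 2.12, 2.17 and 2.10, 1.55-fold lower (adjusted p = 0.000716). None of these genes overlapped between labels, and the 4 PMSG-labelled values of Psmd12 lay within 0.08 of each other. Psmd13 was lower with a difference of -0.57 (adjusted p = 0.00175) and Psmd6 with -0.28 (adjusted p = 0.0270). Psmd11, a lid subunit that clamps the lid to the barrel, was the exception. Its difference was -0.03 (95% interval -0.54 to 0.48, adjusted p = 0.925), the labels overlapped, and PMSG-labelled array 4 alone stood at -1.58 against -0.95 to -0.49 on the other PMSG-labelled arrays. Without that array the difference was 0.17, and without control-labelled array 1 it was 0.06.

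**Figure D4:**
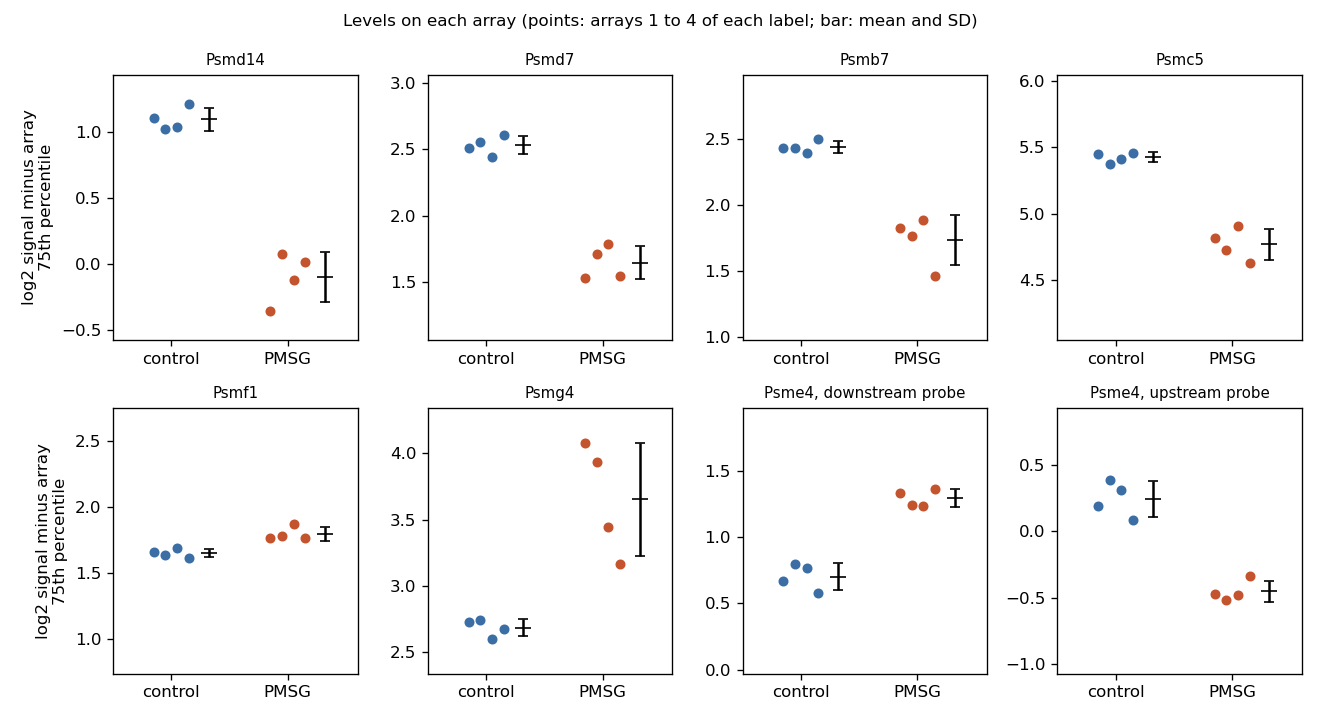
Log2 level (signal minus the 75th percentile of the array, vertical axes of equal span but different position) of 7 genes, Psme4 by 2 probes, on each of the 8 arrays (points), with mean and SD (n = 4) of each label. Psmd14, Psmd7, Psmb7, Psmc5 and the upstream Psme4 probe are lower on every PMSG-labelled array, and Psmg4, Psmf1 and the downstream Psme4 probe are higher on every one.

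In the base of the cap, 7 of the 9 genes named Psm were lower, with a median of -0.49. Of the 6 ATPases, the ring that unfolds substrates and feeds them into the barrel, 4 were lower. Psmc5 changed most: its control-labelled values were 5.45, 5.38, 5.41 and 5.46 and its PMSG-labelled values 4.82, 4.73, 4.90 and 4.63, with no overlap and a 1.58-fold decrease (adjusted p = 0.00122). Psmc4 was lower with a difference of -0.51 (adjusted p = 0.00823), Psmc1 with -0.49 (adjusted p = 0.00386) and Psmc3 with -0.38 (adjusted p = 0.0218). Psmc2 did not overlap between labels, with a difference of -0.30 that missed the threshold (adjusted p = 0.0550, 95% interval -0.54 to -0.06). It was called with arrays centred on their medians (-0.47, adjusted p = 0.00897) and in 3 other alternatives, with an adjusted p of 0.00897 to 0.131 over all of them. Psmc6 differed by -0.09 (adjusted p = 0.554), and its labels overlapped.

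The remaining base subunits were all lower. Psmd1 and Psmd2 are the large scaffold subunits, and ubiquitin shuttles and the deubiquitinase Usp14 dock on Psmd2. Both genes were lower, with differences of -0.57 (adjusted p = 0.00236) for Psmd1 and -0.50 (adjusted p = 0.00520) for Psmd2. Psmd4, a ubiquitin receptor, was lower with a difference of -0.31 and had the highest adjusted p of the called proteasome genes (0.0476). Of the fits that left out 1 array, it was called only in the one without PMSG-labelled array 3.

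In the alpha rings of the core, 7 of the 8 genes were lower and 1 was higher. By the probes under these names, the 7 constitutive genes, Psma1 to Psma7, lay between -0.53 for Psma1 and -0.41 for Psma5. None of these probes reached 1.5-fold, but the probe named Psma3l, brighter than that of Psma3, was 1.73-fold lower. Psma1 gave 3.49, 3.31, 3.34 and 3.60 on control-labelled arrays and 2.98, 2.90, 3.03 and 2.71 on PMSG-labelled arrays (adjusted p = 0.00857). Psma2 gave 2.88, 2.68, 2.67 and 2.71 against 2.42, 2.20, 2.17 and 2.04, a difference of -0.52 (adjusted p = 0.00734). For neither gene did the labels overlap. Psma7 was lower with a difference of -0.50, Psma4 with -0.49, Psma3 with -0.48 and Psma6 with -0.45, with adjusted p-values of 0.00679, 0.00350, 0.0223 and 0.00493.

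Psma3 has a second name on the array, Psma3l. The Psma3l probe lies at chr6:93111009-93111068 of rn4, about a kilobase upstream of the Psma3 probe at chr6:93112068-93112127 on the same strand, and is annotated with accessions of Psma3. It stood at 4.67, 4.60, 4.58 and 4.57 on control-labelled arrays and at 3.99, 3.66, 3.82 and 3.78 on PMSG-labelled arrays, 1.73-fold lower (adjusted p = 0.000676), beside 1.39-fold for the Psma3 probe. Neither probe overlapped between labels.

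Psma8, the form of the alpha subunit known from meiotic germ cells of the testis, was the higher gene. Its brightest probe rose from -3.81, -3.52, -3.59 and -3.88 on control-labelled arrays to -2.81, -3.02, -3.17 and -3.27 on PMSG-labelled arrays, 1.55-fold (adjusted p = 0.00836). All PMSG-labelled arrays were above all control-labelled arrays. A second Psma8 probe gave a difference of 0.27 (adjusted p = 0.596, and -0.017 without PMSG-labelled array 3), and the remaining probe was not well above background on any array. With the tested probes of a gene averaged, Psma8 was not called.

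In the beta rings, 5 of 8 genes were lower and 0 higher in limma, with 7 at an unadjusted p under 0.05, 6 of them below 0 and Psmb11 above. The subunits Psmb5, Psmb6 and Psmb7 carry the cutting sites, with chymotrypsin-like, caspase-like and trypsin-like preference in that order. Psmb7 showed the largest change of the ring, and its probe is shown as that of a catalytic subunit; it covers a stretch of chr3:18413231-18433105 of rn4 on the minus strand and joins exons.
Psmb7 probe: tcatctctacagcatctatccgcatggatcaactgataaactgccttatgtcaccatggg

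Psmb7 stood at 2.43, 2.43, 2.39 and 2.50 on control-labelled arrays and at 1.82, 1.77, 1.89 and 1.46 on PMSG-labelled arrays, 1.63-fold lower (adjusted p = 0.00212). The labels did not overlap, and PMSG-labelled array 4 was the lowest. Psmb6 gave 2.72, 2.65, 2.64 and 2.72 against 2.24, 2.06, 2.45 and 1.99, a difference of -0.50 ± 0.12 (SE, adjusted p = 0.0130), and every PMSG-labelled array was lower. Psmb5 gave 4.10, 4.03, 3.96 and 4.12 against 3.74, 3.62, 4.01 and 3.49, with a difference of -0.34 (95% interval -0.63 to -0.05) that was not called (adjusted p = 0.0712). The Psmb5 value of PMSG-labelled array 3 lay within the range of the control-labelled arrays, and without that array the difference was -0.44 (adjusted p = 0.0161, against 0.00874 to 0.195 over all alternatives). It was also called with arrays centred on their medians (-0.50) and with array weights (-0.31).

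Of the non-catalytic beta subunits, Psmb3 gave 3.83, 3.63, 3.68 and 3.78 against 3.24, 2.94, 3.45 and 2.86, 1.52-fold lower (adjusted p = 0.0130) with no overlap. Psmb1 was lower with a difference of -0.58 (adjusted p = 0.00455) and Psmb2 with -0.39 (adjusted p = 0.0249), while Psmb4 differed by -0.14 (adjusted p = 0.297). RefSeq holds near copies of Psmb3 and Psmb6 under the names Psmb3l1 and Psmb6l1, and the Psmb6 probe lists a predicted copy, so the signals of these genes may be shared. Psmb11, the form of the chymotrypsin-like subunit known from the thymic cortex, gave -5.04, -4.63, -4.75 and -4.74 on control-labelled arrays and -3.88, -4.22, -4.10 and -4.77 on PMSG-labelled arrays. PMSG-labelled array 4 lay inside the control range, and the difference of 0.55 was not called (adjusted p = 0.0585). It was called without that array (0.72, adjusted p = 0.00541) and with array weights (0.67, adjusted p = 0.0113). It shrank to 0.31 with normexp background correction (adjusted p = 0.0782) and to 0.32 with quantile normalization (adjusted p = 0.103). The adjusted p was 0.00541 to 0.138 over all alternatives. A second Psmb11 probe was well above background on 1 array of each label and was not tested.

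Of the immunoproteasome genes, which interferon induces in place of the constitutive ones, 0 of 3 passed the threshold in limma, and 1, Psmb8, had an unadjusted p under 0.05. Psmb8 gave 1.90, 1.66, 1.72 and 2.46 against 1.59, 1.33, 1.49 and 1.24, a difference of -0.52 (adjusted p = 0.0627) with no overlap between labels and control-labelled array 4 well above the rest, without which it was -0.35. Psmb8 was called lower with arrays centred on their medians (-0.69, adjusted p = 0.0234) and with normexp background correction (-0.54, adjusted p = 0.0379), with an adjusted p of 0.0234 to 0.127 over all alternatives. Psmb9 and Psmb10 differed by 0.08 and -0.10, with overlap between labels, and Psmb9 turned to -0.09 with arrays centred on their medians and Psmb10 to 0.05 with quantile normalization. Whether these differences depart from those of Psmb5, Psmb6 and Psmb7 was not tested.

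Among the chaperones that build the base of the cap, 2 of 3 were lower. Psmd5 gave 0.67, 0.50, 0.52 and 0.59 on control-labelled arrays and -0.33, -0.08, -0.19 and 0.02 on PMSG-labelled arrays, 1.64-fold lower (adjusted p = 0.00138). Psmd9 gave 3.65, 3.67, 3.59 and 3.60 against 3.00, 2.93, 3.08 and 3.02, 1.54-fold lower (adjusted p = 0.000884), and its second probe was lower with a difference of -0.82 (adjusted p = 0.00134). Both genes were separate between labels on every array. Psmd10, also known as gankyrin, differed by -0.08 (adjusted p = 0.577).

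The chaperones of the 20S core among the 46 genes went in different directions, and Psmg3 is not among these genes. Psmg1 and Psmg2 work as a pair that arranges the alpha ring. Psmg2 was lower, with -0.16, -0.38, -0.25 and -0.14 against -0.69, -0.84, -0.65 and -0.65 and a difference of -0.48 (adjusted p = 0.00683), and Psmg1 differed by -0.18 (adjusted p = 0.174). Psmg4, a chaperone of a second pair that acts on the same ring, was higher and had the largest increase of the 46 genes. Its probes are shown because both carry this increase. They overlap by 14 bases, given in capitals, and so are not independent, and lie at chr17:37050938-37050997 and chr17:37050892-37050951 of rn4 on the minus strand.
Psmg4 upstream probe: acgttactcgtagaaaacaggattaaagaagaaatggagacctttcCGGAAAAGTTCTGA
Psmg4 downstream probe, bases 1 to 30: CGGAAAAGTTCTGAgcagcagaaggaagtg

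By the downstream probe, the brighter one, Psmg4 stood at 2.73, 2.74, 2.60 and 2.68 on control-labelled arrays and at 4.08, 3.93, 3.44 and 3.16 on PMSG-labelled arrays. The control-labelled arrays were nearly level, while the PMSG-labelled arrays spread widely, with arrays 1 and 2 above arrays 3 and 4, and the labels did not overlap. The difference was 0.97 ± 0.20 (SE), or 1.96-fold higher (adjusted p = 0.00696), and it was 0.98 and 0.96 within the slide rows. The upstream probe gave 0.85 (adjusted p = 0.0058). RefSeq also lists a near copy, Psmg4l1, whose signal these probes may share.

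Of the activators and the inhibitor, 1 gene was lower, 1 higher and 3 not called by their brightest probes. The higher one is Psme4, whose other probe was lower. The shares called, 40%, and called lower, 20%, are near the 34.5% and 16.5% of all genes. Psme3, the activator found in the nucleus, gave -0.51, -0.57, -0.64 and -0.41 against -1.01, -1.03, -0.88 and -1.21, 1.41-fold lower (adjusted p = 0.00755) with no overlap. Psme1 and Psme2, which form the interferon-inducible activator, differed by 0.09 (adjusted p = 0.521) and -0.19 (adjusted p = 0.260). With arrays centred on their medians Psme1 turned to -0.08, and Psme2 was called lower at -0.36 (adjusted p = 0.0338, against 0.0338 to 0.455 over all alternatives). The Psme2 probe also lists predicted copies. Psmf1, an inhibitor of the core, was slightly above the control range on every PMSG-labelled array, with 1.66, 1.64, 1.69 and 1.62 against 1.77, 1.78, 1.87 and 1.76, but the difference of 0.14 was not called (adjusted p = 0.197) and turned to -0.02 when arrays were centred on their medians.

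Psme4 encodes a large single-chain activator that opens the core in place of the cap, and its probes moved in opposite directions. Both lie on the plus strand of chromosome 14 of rn4, the upstream probe at chr14:111990483-111990542 and the downstream probe at chr14:111997089-111997148, with 6606 bases between their starts. They are shown because the direction for this gene depends on which is read. The upstream probe can be read through in 1 frame without a stop. The downstream probe, over its full 60 bases, holds a stop in every forward frame, though the bases 1 to 30 shown hold none.
Psme4 upstream probe: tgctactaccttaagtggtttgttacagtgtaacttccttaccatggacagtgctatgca
Psme4 downstream probe, bases 1 to 30: gagcatacccaggcacagtccctgtacaga

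The downstream probe, the brighter one, stood at 0.67, 0.80, 0.76 and 0.58 on control-labelled arrays and at 1.33, 1.24, 1.23 and 1.36 on PMSG-labelled arrays. Every PMSG-labelled array was higher, and the difference was 0.59 ± 0.09 (SE), 1.51-fold (adjusted p = 0.00186). The upstream probe gave 0.20, 0.39, 0.31 and 0.08 against -0.47, -0.52, -0.48 and -0.34, so every PMSG-labelled array was lower, with a difference of -0.70 ± 0.10 (SE, adjusted p = 0.00134). Within each array, the downstream minus the upstream value was 0.46 ± 0.03 (SD, n = 4) in control-labelled arrays and 1.74 ± 0.05 (SD, n = 4) in PMSG-labelled arrays. The shift between labels was 1.29. It is given without a test, since each probe by itself separates the labels. With both probes averaged the gene was at -0.05 (adjusted p = 0.684), so no direction is given for the gene as a whole.

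Psmc3ip was taken in by its name but encodes a factor of meiotic recombination and no proteasome subunit. It differed by 0.20 (adjusted p = 0.147), with overlap between labels.

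Genes that work with the proteasome were also lower in part. Of 53 listed genes of the ubiquitin and proteasome pathway, 48 were found on the array, with 25 lower, 2 higher and 21 not called and a median of -0.31. That is 56.25% called and 52.1% called lower, against 34.5% and 16.5% of all genes tested. The 3 immunoproteasome genes are not counted among them. Of the 6 lists the 3 genes with the largest difference each are given with values.

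**Figure D5:**
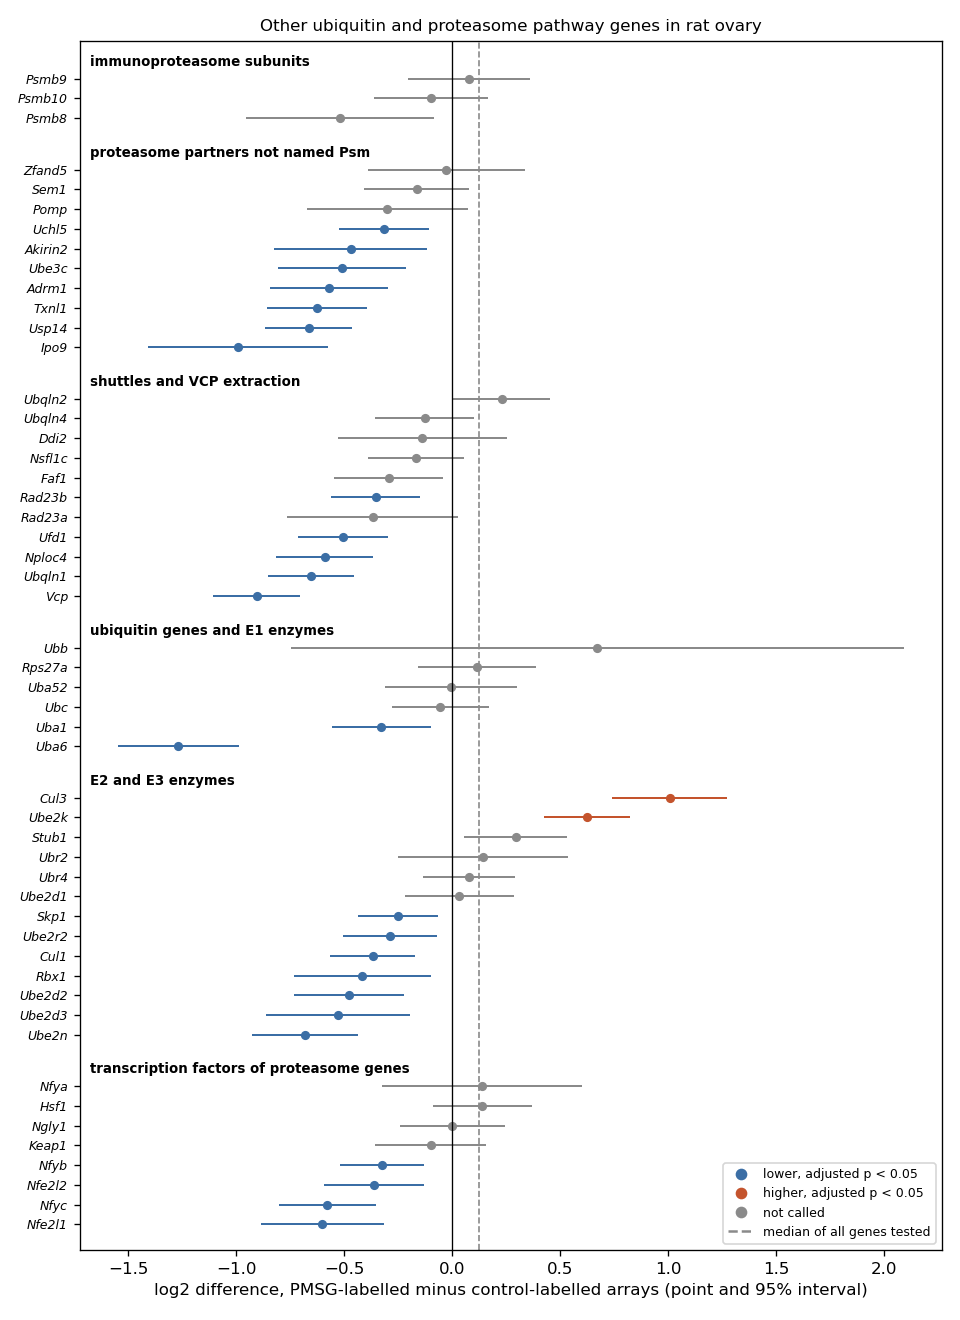
Log2 difference (PMSG-labelled minus control-labelled arrays, horizontal axis) of the immunoproteasome genes and 48 other genes of the pathway by list, as a point with its 95% interval from limma on 4 arrays a label, with the median of all genes tested as a dashed line. The partners of the proteasome lie left of 0 throughout, from -0.99 to -0.03, and the widest interval is that of Ubb.

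Partners that bind or carry the proteasome had 7 of 10 genes lower. Ipo9, an importin that brings proteasomes into the nucleus, was lower with a difference of -0.99 ± 0.18 (SE, adjusted p = 0.00377), which normexp background correction reduced to -0.57 (adjusted p = 0.0049, against 0.00221 to 0.0137 over all alternatives). Usp14, a deubiquitinase of the cap, was lower with a difference of -0.67 (adjusted p = 0.000768), and Txnl1, a thioredoxin-like protein of the cap, with -0.63 (adjusted p = 0.00194). Adrm1, a ubiquitin receptor of the cap, and Ube3c, Akirin2 and Uchl5 were the other 4 genes called. Of the genes that extract and deliver substrates, 5 of 11 were lower. Vcp, the ATPase that pulls ubiquitinated proteins out of membranes and complexes, was lower with a difference of -0.90 ± 0.09 (SE, adjusted p = 0.000247), and its cofactor Nploc4 with -0.59 (adjusted p = 0.00222). Ubqln1, a shuttle to the proteasome, was lower with a difference of -0.65 (adjusted p = 0.000823), and Ufd1 and Rad23b were lower too.

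Of 6 genes for ubiquitin and for the E1 enzymes that activate it, 2 were lower, both of them E1 genes. The share called, 33.3%, is near the 34.5% of all genes. Uba6 stood at -0.31, -0.32, -0.42 and -0.49 on control-labelled arrays and at -1.68, -1.37, -1.83 and -1.73 on PMSG-labelled arrays, a difference of -1.27 ± 0.12 (SE, adjusted p = 0.000247), and Uba1 was lower with a difference of -0.33 (adjusted p = 0.0322). Ubb, a polyubiquitin gene, differed by 0.67 (adjusted p = 0.417). Control-labelled array 2 stood at 3.36 and the other control-labelled arrays between 6.10 and 6.29, and without that array the difference was -0.04. The E2 and E3 enzymes, which pass ubiquitin on and choose its target, had 7 of 13 genes lower and 2 higher. Cul3, the scaffold of a family of ubiquitin ligases, was higher by 1.01 (adjusted p = 0.000471), and Ube2k, which builds the chains that mark proteins for the proteasome, by 0.62 (adjusted p = 0.000981). With all tested probes of Ube2k averaged the difference was 0.22 and was not called (adjusted p = 0.194, against 0.000393 to 0.194 over all alternatives). Ube2n, which builds chains of another linkage, was lower with a difference of -0.68 (adjusted p = 0.00179).

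Among transcription factors that act on proteasome genes, 4 of 8 were lower. Nfe2l1, which raises proteasome transcription when the proteasome is inhibited, gave 1.04, 1.00, 0.76 and 1.07 against 0.54, 0.39, 0.40 and 0.13, a difference of -0.60 (adjusted p = 0.00635). Nfyc, a subunit of the NF-Y factor, was lower with a difference of -0.58 (adjusted p = 0.00242), and Nfe2l2, a relative of Nfe2l1 that answers oxidative stress, with -0.36 (adjusted p = 0.0230). Of the other NF-Y subunit genes, Nfyb was lower and Nfya was not called.

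Since Nfe2l1 and Nfe2l2 are known to act through an antioxidant response element and NF-Y through a CCAAT box, the promoters of the proteasome genes were searched for both. The searched stretch ran from 250 bases before to 50 bases after the start in RefSeq (GRCr8), and 40 of the 46 names had one. The element core, TGACNNNGC on either strand, was in 8 of 40 (20%), against 12.1% of the 33469 promoters of the table. It was in 6 of 26 promoters of genes called lower, in 1 of 3 of genes called higher and in 1 of 11 of genes not called. The 1 among genes called higher is Psme4, whose probes went in opposite directions. The box, CCAAT on either strand, was in 19 of 40 (47.5%), against 37.5% of all promoters. It was in 16 of 26 (61.5%) of the genes called lower, in 0 of 3 of those called higher and in 3 of 11 of those not called. A match describes letters only.

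The promoters of a pair of genes called lower and a pair called higher by their brightest probes are shown, 250 bases up to the start. Matches to either motif are in capitals. Psme4 is in the higher pair by its brightest probe alone, as its other probe was lower. They are examples and do not stand for the genes called lower. Psmd8, Psmd5 and Psmc5 had larger decreases than Psmd9 and no match in the searched stretch, and Psmb7 and Psmd3 had larger decreases and a match. The promoter of Psmd7 (chr19:52411317-52411566 of GRCr8, minus strand) holds 2 CCAAT boxes. That of Psmd9 (chr12:39018265-39018514, minus strand) holds the element core on each strand and 1 box, that of Psme4 (chr14:108706393-108706642, plus strand) 1 core, and that of Psmg4 (chr17:30923374-30923623, minus strand) neither.
Psmd7 promoter: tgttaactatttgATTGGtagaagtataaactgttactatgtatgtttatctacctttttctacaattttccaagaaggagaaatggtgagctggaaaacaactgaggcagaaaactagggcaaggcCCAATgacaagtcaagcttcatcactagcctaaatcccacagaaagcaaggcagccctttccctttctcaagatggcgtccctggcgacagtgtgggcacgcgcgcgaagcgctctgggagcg
Psmd9 promoter: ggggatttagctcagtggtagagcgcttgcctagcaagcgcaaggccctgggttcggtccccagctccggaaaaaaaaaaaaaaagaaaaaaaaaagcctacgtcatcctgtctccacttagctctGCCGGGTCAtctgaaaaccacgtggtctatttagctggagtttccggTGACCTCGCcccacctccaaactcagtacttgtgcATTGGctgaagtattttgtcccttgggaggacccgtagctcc
Psme4 promoter: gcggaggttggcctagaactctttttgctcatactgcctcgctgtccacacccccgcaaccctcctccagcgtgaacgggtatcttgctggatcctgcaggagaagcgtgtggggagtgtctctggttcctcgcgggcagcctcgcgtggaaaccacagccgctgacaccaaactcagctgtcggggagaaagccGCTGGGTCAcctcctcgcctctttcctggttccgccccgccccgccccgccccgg
Psmg4 promoter: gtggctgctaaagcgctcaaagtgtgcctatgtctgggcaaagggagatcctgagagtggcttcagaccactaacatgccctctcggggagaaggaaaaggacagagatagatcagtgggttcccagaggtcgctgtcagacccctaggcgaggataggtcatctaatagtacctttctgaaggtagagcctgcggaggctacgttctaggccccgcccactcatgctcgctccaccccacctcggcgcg

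Markers of several cell types moved with the labels beside these genes. A marker list was summed as linear signal over the 75th percentile of the array. The brightest markers weigh most in such a sum. In the endothelial list that is Kdr, with a mean level of 4.16 on control-labelled and 3.73 on PMSG-labelled arrays. Over all genes, 34.5% were called, 18% higher and 16.5% lower. In the granulosa list and in the fibroblast and smooth muscle list the share called, 28.6% in each, was below that. All 8 oocyte markers were higher, with sums from 3.20 to 5.75 on control-labelled and from 11.03 to 23.7 on PMSG-labelled arrays. Of the oviduct epithelium markers 5 of 6 were higher (2.71 to 4.36 against 8.36 to 15.7), and of the leukocyte markers 5 of 7 (7.45 to 9.28 against 11.99 to 13.3). The endothelial list had 4 genes lower and 1 higher of 7 (20.9 to 24.4 against 17.0 to 18.5). Granulosa markers had 1 of 7 higher and 1 lower (113 to 194 against 118 to 156), theca markers 1 of 4 higher and 2 lower (59.4 to 67.4 against 25.3 to 62.0), and fibroblast and smooth muscle markers 2 of 7 higher (146 to 179 against 163 to 196). Of the 5 adipocyte markers limma called 0, with 0 at an unadjusted p under 0.05 (5.66 to 46.0 against 17.3 to 50.5). No marker of any list was below background on all arrays. The part of these markers in the differences of the proteasome genes was not tested.

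Leaving out 1 array at a time gave 26 to 32 proteasome genes lower and 3 or 4 higher. The fourth was Psmb11, without PMSG-labelled array 4. Of all probes tested, 25.9% were called and 13.0% were lower without control-labelled array 4, the lowest shares of these fits. The highest were 45.0% called and 17.4% lower, without PMSG-labelled array 4. Psmd14, Psmd7, Psmd8, Psmd3, Psmd12, Psmc5, Psmb7, Psmb3, Psmd5, Psmd9, Psma3l, Psmg4, Psma8 and the downstream Psme4 probe kept their calls in all 8 of these fits. Of the smaller decreases, Psma3 was lost without PMSG-labelled array 2 (adjusted p = 0.0566) or control-labelled array 1 (0.0637) or 3 (0.0573), and Psma5 without control-labelled array 1 or 4 (0.0542 each). Psmb2 was lost without PMSG-labelled array 2 (adjusted p = 0.0569) or control-labelled array 1 (0.0682), 2 (0.0594) or 4 (0.0698), and Psmc3 without PMSG-labelled array 1 (0.0526) or control-labelled array 2 (0.0504) or 4 (0.0659). Psmd6 was lost without PMSG-labelled array 2 or any 1 control-labelled array (adjusted p from 0.0599 to 0.0727), and Psmd4 in 7 of the 8 fits (from 0.0648 to 0.110). With quantile normalization Psmb2, Psmc3, Psmd4, Psmd6, Uba1 and Nfe2l2 were not called (-0.25 to -0.15). Over all alternatives the adjusted p was 0.00238 to 0.0637 for Psma3, 0.00247 to 0.0546 for Psma5, 0.00408 to 0.0793 for Psmb2, 0.00740 to 0.0844 for Psmc3, 0.0133 to 0.129 for Psmd6 and 0.0110 to 0.246 for Psmd4. Among the pathway genes the count of 27 called dropped to 17 without control-labelled array 1, where Nfe2l2 and Uba1 were among the calls lost (adjusted p = 0.0703 and 0.0844, against 0.0136 to 0.128 and 0.00317 to 0.143 over all alternatives). Uba1 was also lost without PMSG-labelled array 2 or control-labelled array 2 or 4 (-0.28 to -0.32), and Nfe2l2 without PMSG-labelled array 1 or control-labelled array 4 (-0.36 and -0.35).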

How the data were processed

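Ovary RNA of 8 samples, 4 labelled PMSG and 4 labelled control, was hybridised to 1-colour Agilent rat arrays after Cy3 labelling of 500 ng of total RNA, per the labels' protocols. Per the file headers, the authors' spot intensity values were made with Agilent Feature Extraction 11.5.1.1, and the deposited scanner files also hold calls for signal well above background and outliers. The authors deposited a table of log2 values, used here as an alternative (0 columns not used). Probe coordinates are those of the files (rn4, RGSC 3.4). Promoters and synonyms come from RefSeq tables of GRCr8.

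Control and outlier spots were left out, spots of a probe averaged as log2 processed signal, 17 probes with no usable spot dropped, and each array's 75th percentile subtracted. A probe was tested where it was well above background on at least 4 of 8 arrays. Differences between the labels were fitted by lmFit and eBayes of limma 3.58.1 (R 4.3.3), without covariates, and adjusted by Benjamini-Hochberg over 25303 probes, with a threshold of 0.05. The procedure was tested on simulated data. The number of arrays limits the precision. Where nothing says that samples are separate animals, p-values measure only the spread between samples. A pair of member probes, 1 of Psma8 and 1 of Psmb11, were not tested.

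The members and the lists were chosen with earlier results of these data known. Values are given for every member, and in each pathway list for the 3 genes with the largest difference. The listed genes Paaf1, Ecpas, Huwe1, Ubr1, Nfe2l3 and Psmg3 were not analysed here, and no protein sequence was used. Sem1, Ufd1 and Ube2r2 were matched to probes through accessions. Alternatives were quantile normalization, median centring, normexp background correction (offset 50), the deposited log2 table, 2 other filters, array weights, the slide row or the replicate number as a block, all probes of a gene averaged, and each array left out.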

Additional observations from a re-analysis of the deposited data

Results flagged for a closer look

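In 7 of the 138 groups of 4 arrays examined (each tested member probe and each pathway gene given with values), 1 array stood apart from the other 3 by Dixon's ratio, the gap to the nearest array over the range of the group. Chance gives about 1 in 20, or 6.9 of 138, which is close to the number found. The members were Psmc3, with 3.34 on control-labelled array 4 against 3.16 to 3.17 on the others (ratio 0.957), Psme1, with 4.57 on control-labelled array 2 against 4.78 to 4.81 (0.875), and Psmf1, with 1.87 on PMSG-labelled array 3 against 1.76 to 1.78 (0.866). Of the pathway genes, Ubb stood at 3.36 on control-labelled array 2 against 6.10 to 6.29 (0.934), by far the widest gap. Uba1 stood at 3.94 on control-labelled array 3 against 4.10 (0.976), Ube2k at -0.83 on control-labelled array 1 against -0.74 to -0.73 (0.8294), and Txnl1 at 3.35 on PMSG-labelled array 3 against 3.54 to 3.58 (0.846).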

How the results depend on the processing

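Of 1237 comparisons of a gene's value with its value under 1 of 18 alternatives, 1166 kept direction and side of the threshold, 48 lost a call, 12 gained one and 11 changed sign. The sign changes were Psmb10 (0.052 with quantile normalization), Psme1 (-0.080), Psmb9 (-0.090) and both Psmf1 probes (-0.025 and -0.037) with median centring, Psmd11 with array weights (0.071), and Psme4 with its probes averaged (-0.052). Leaving out 1 array moved Psmd11 between -0.20 and 0.17, Ubb between -0.037 and 0.94 and the dimmer tested Psma8 probe between -0.017 and 0.63. None of the values of opposite sign was called. The median difference of the members moved to -0.39 with quantile normalization and to -0.65 with median centring, where the median of all probes was 0.03 and -0.05, against 0.11. With all probes of a gene averaged, 1 member was higher. Leaving out 1 array gave 6552 to 11382 probes, 29 to 35 members (26 to 32 lower, 3 to 4 higher), medians of -0.50 to -0.44 and 17 to 28 pathway genes. With the replicate number as a block, 26 members were lower and 3 higher, of 7346 probes called, and Psma5, Psmb2, Psmc3, Psmd4 and Psmd6 were lost. The numbers share no stated source, and deviations of same-numbered arrays correlated at 0.044, 0.036, 0.183 and -0.019. These values were not set against those of differently numbered arrays, so they cannot tell whether the numbers pair the arrays. The causes of these changes were not tested.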

Other observations

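Probes with proteasome annotation but another name lay outside the rule and were set beside the members. An alpha 3-like transcript, ENSRNOT00000011446, was lower with a difference of -0.90 (limma, adjusted p = 7.33e-04), from 2.90, 2.60, 2.69 and 2.65 on control-labelled arrays 1 to 4 to 2.00, 1.83, 1.75 and 1.66 on PMSG-labelled arrays. The beta 7-like LOC365940 was lower with a difference of -0.70 (adjusted p = 0.00974) and the beta 3-like LOC680824 with -0.72 (adjusted p = 0.0205). In all 3 the labels did not overlap, and the signals may be shared with Psma3, Psmb7 and Psmb3, whose own differences were -0.48, -0.70 and -0.61. The probe of the alpha 3-like transcript lies at chr6:93104056-93106558 of rn4, upstream of the Psma3l and Psma3 probes on the same strand. It may therefore be another probe of Psma3, and the Psma3l probe differed by -0.79.

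The Psmd12-like LOC366301 differed by -0.50 (adjusted p = 0.0549), the beta 4-like LOC367154 by -0.15 and the activator-like XM_222590 by -0.18, and none was called. Pomp, the maturation factor that joins the core during assembly, differed by -0.30 (adjusted p = 0.178). Pithd1, whose product shares a domain with the proteasome partner Txnl1, was higher by 0.30 (adjusted p = 0.0408), with no overlap between labels. The probe of RGD1560350 was above background on 1 of the 8 arrays and was not tested.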
